A study of Mus musculus with 6 samples.

Results

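The genes described here are 38 mouse genes of antigen processing and presentation, chosen by name among the 46517 gene identifiers of the count tables. They were sorted by role into 14 class I genes, 15 peptide supply genes and 9 class II genes. The 38 identifiers were each found once in the tables, and 35 of them passed the filter on low counts and were tested. The class II genes H2-Aa, H2-Eb1 and Ciita did not pass the filter.

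The series compared CD8 T cells, naive cells purified from spleens and lymph nodes of C57BL/6J mice, that differed in the basophil supernatant they received between day 1 and day 2 of a stimulation of 3 days. In the IL-3 supernatant group (n = 3 libraries) the supernatant came from sorted basophils kept for 2 days with IL-3 at 3 ng/mL and IL-2 at 100 units/mL. In the PBS supernatant group (n = 3 libraries) the basophils had the same IL-2 and PBS in place of IL-3. All T cells were stimulated on plate-bound antibody to CD3 with antibody to CD28 and IL-2. IL-3 from the basophil medium may have been carried over with the supernatant, and cells given IL-3 without basophils were not analysed here, so the effects of the 2 cannot be told apart. Whether the 3 replicates of a group are separate mice or cultures is not stated in the labels, and the spread behind each p-value may therefore be technical. Totals of expected counts were 19283416 to 22174902 in the IL-3 supernatant libraries and 17377052 to 18753617 in the PBS supernatant libraries. CPM are counts scaled to the library's total over tested genes, adjusted by the TMM factor of edgeR. The 8 CD8 T cell markers were all well detected. They summed to 1630 to 1790 CPM in the IL-3 supernatant libraries and 2400 to 2560 CPM in the PBS supernatant libraries. With IL-3 supernatant 7 of the 8 fell and Cd5 rose, against 16.1% of all tested genes that fell and 14.8% that rose. The log2 difference was -1.17 for Cd8a (SE 0.05), -0.42 for Cd8b1 (SE 0.06) and 0.33 for Cd5 (SE 0.06). In bulk RNA, fewer cells of a type and less RNA per cell cannot be told apart.

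Class I molecules present peptides from inside the cell to CD8 T cells. The proteasome cuts proteins into peptides, and interferon-gamma makes cells swap its standard catalytic subunits for immunosubunits. The TAP transporter carries the peptides into the endoplasmic reticulum, where tapasin and its partners load them onto a heavy chain paired with beta-2-microglobulin. NLRC5 is the transactivator of class I genes and CIITA that of class II genes, and both act through the RFX complex at a conserved promoter module. Class II molecules are known from B cells, dendritic cells and macrophages, and mouse T cells are known for having little of them.

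Promoter sequences are given here for genes that went different ways below. The whole module was not searched, only the short motifs named after the sequences. RefSeq windows (GRCm38.p6) were found for 27 of the 38 members, and the 250 bases before the start are given for the light chain gene B2m (lower with IL-3 supernatant), the classical heavy chain gene H2-K1 (did not pass) and the nonclassical heavy chain gene H2-Q6 (higher). They lie at chr2:122147437-122147686 on the plus strand, chr17:34000348-34000597 on the minus strand and chr17:35424600-35424849 on the plus strand. All are written in the direction of the gene, and capitals mark exact matches to the motifs named below.
B2m: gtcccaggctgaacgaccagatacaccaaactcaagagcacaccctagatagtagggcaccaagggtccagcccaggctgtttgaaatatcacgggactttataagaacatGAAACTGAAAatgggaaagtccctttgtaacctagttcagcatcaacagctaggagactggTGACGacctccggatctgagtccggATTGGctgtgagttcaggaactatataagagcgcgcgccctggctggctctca
H2-K1: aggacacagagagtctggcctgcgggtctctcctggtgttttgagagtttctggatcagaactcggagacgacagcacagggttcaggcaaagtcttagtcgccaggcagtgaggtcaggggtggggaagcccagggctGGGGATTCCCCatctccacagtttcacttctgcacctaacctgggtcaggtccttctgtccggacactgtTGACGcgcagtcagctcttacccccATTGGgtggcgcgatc
H2-Q6: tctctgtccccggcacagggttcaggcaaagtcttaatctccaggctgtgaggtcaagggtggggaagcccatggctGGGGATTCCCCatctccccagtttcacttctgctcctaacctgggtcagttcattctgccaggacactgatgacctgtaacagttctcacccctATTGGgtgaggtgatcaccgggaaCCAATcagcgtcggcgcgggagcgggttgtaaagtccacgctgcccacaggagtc

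Each motif was searched on both strands. The CCAAT box (CCAAT), bound by NF-Y, was in 18 of the 27 member windows and in 33.9% of 32841 promoter windows of the same length. The cyclic AMP core site (TGACG) was in 14 member windows and in 17.8% of all windows. In B2m TGACG and the CCAAT box began at -78 and -53 from the start, and in H2-K1 at -41 and -16, so the pair has the same spacing in both. H2-Q6 had 2 CCAAT boxes and no TGACG. For the interferon-stimulated response element, the exact letters GAAA, any 2 bases, GAAA were in 3 member windows and in 2.98% of all windows. The 3 were B2m, H2-T22 and H2-T23. Looser forms of the element were not searched, so other windows, H2-K1 and H2-Q6 among them, are not shown to lack it. The kappa B site (GGGGA, any base, TCCCC) was in 3 heavy chain windows, H2-K1, H2-D1 and H2-Q6, and in 0.0457% of all windows. The gamma-activated site (TTCNNNGAA) was in 2 member windows, H2-M3 and Psmb8, and in 7.02% of all windows. No motif overlapped another in the 3 windows printed. The windows of Erap1, H2-D1, H2-Q4, Pdia3, Psmb8, Psmb9, Tap1 and Tapbp lie wholly in annotated exons, counted on either strand. For H2-T23, Psmb8, Rfxank and Tapbp, bases just after the start were not found in a transcript of the gene. Matches in all these windows are therefore less certain to lie before a start. A match is a description of these letters only.

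With IL-3 supernatant, most genes of peptide supply were lower, while the classical class I heavy chains did not pass the test and some nonclassical heavy chains were higher. The transactivator Nlrc5 and the light chain B2m were lower, and the class II chain gene H2-Ab1 was higher at a low level. Of 35 members tested, 5 rose and 12 fell at an adjusted p below 0.05 (edgeR's quasi-likelihood test, Benjamini-Hochberg over all genes), against 14.8% of all 12407 genes that rose, 16.1% that fell and 30.9% in either direction. That is 48.6% of the tested members. Of 14 class I genes 3 rose and 3 fell, with a median log2 fold change (IL-3 minus PBS supernatant throughout) of -0.02. Of 15 peptide supply genes 1 rose and 9 fell, with a median of -0.26. Of 6 tested class II genes 1 rose and none fell, with a median of 0.08. The median over all tested genes was 0.00 with DESeq2 size factors, a scaling that tends to centre it by construction. By library size only, which does not centre it, the median was 0.02. Among the 35 tested members, CPM of the groups did not overlap for 8 higher and 12 lower with IL-3 supernatant, where 43.6% of all genes did not overlap in either direction (21.0% higher and 22.6% lower). The smallest called change among members was log2 0.20 and most lay under log2 0.5.

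**Figure D1:**
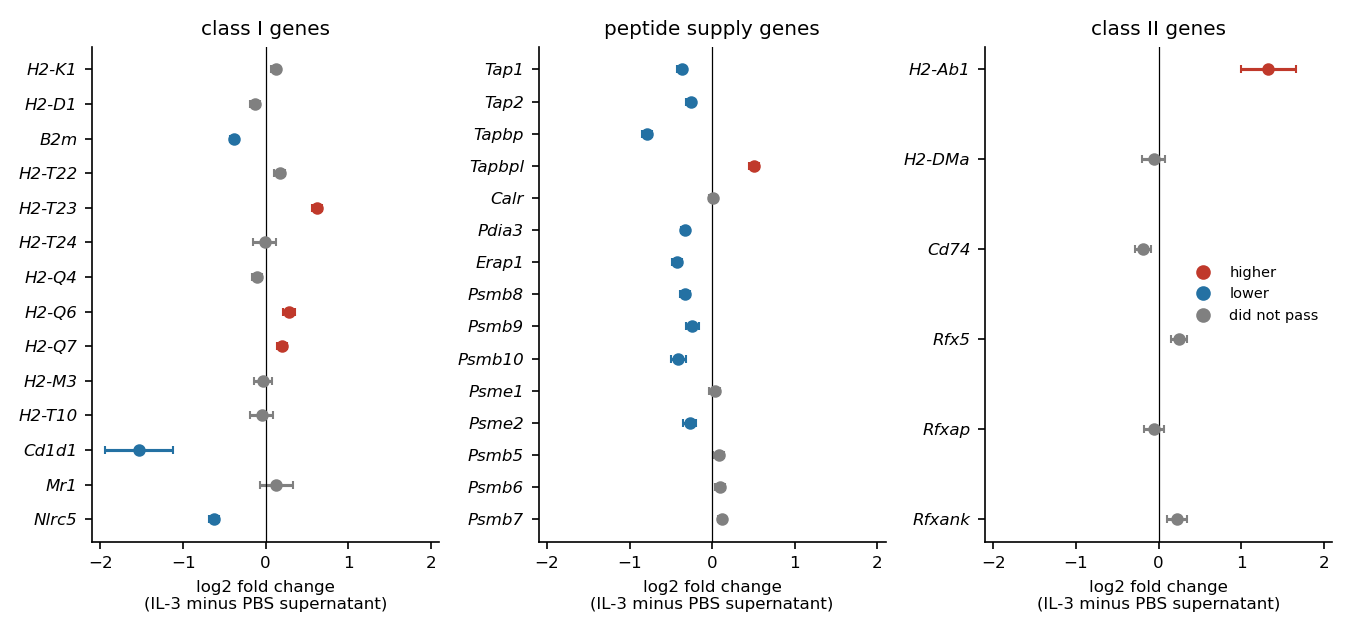
Log2 fold change (IL-3 minus PBS supernatant, x axis) of the 35 tested members, in 3 panels by class, with bars for the SE of the fit. Blue marks genes that fell, red genes that rose and grey genes that did not pass; 9 of 15 peptide supply genes are blue, with Tapbp furthest left at -0.79 and Tapbpl on the right at 0.51.

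H2-K1 and H2-D1 encode the classical heavy chains of C57BL/6J mice, and neither passed. H2-K1 had 829, 774 and 847 CPM in the IL-3 supernatant libraries and 717, 791 and 750 CPM in the PBS supernatant libraries, and the groups overlapped. Its log2 fold change was 0.12 (95% interval 0.00 to 0.23, adjusted p = 0.119 by edgeR). H2-D1 had 732, 671 and 721 CPM with IL-3 supernatant and 719, 798 and 800 CPM with PBS supernatant, at log2 -0.13 (-0.24 to -0.01, adjusted p = 0.107 by edgeR). Their signs are opposite, and both intervals leave room for changes of about the size of the smaller calls among members. The call depended on single libraries: H2-K1 passed as higher without IL-3 supernatant replicate 2 (adjusted p = 0.0466 by edgeR), and H2-D1 passed as lower without PBS supernatant replicate 1 (0.00824) and with GC content and length trends removed (0.00522). By DESeq2 and limma-voom 0 of the 2 passed, and both had an unadjusted p below 0.05 in edgeR.

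The light chain fell. B2m (ENSMUSG00000060802, chromosome 2, 122147686 to 122153083, GRCm38) had 591, 603 and 605 CPM with IL-3 supernatant and 812, 768 and 769 CPM with PBS supernatant. Every IL-3 supernatant library was below every PBS supernatant library. The log2 fold change was -0.38 (SE 0.05, adjusted p = 1.1e-05 by edgeR), or 0.766-fold. Beta-2-microglobulin pairs with every class I heavy chain, so its level was set beside theirs per length. In TPM (scaled for transcript length and library total), B2m stood at 1370 ± 24.9 with IL-3 supernatant and 1750 ± 108 with PBS supernatant (SD, n = 3 each), and the 10 class Ia and Ib heavy chains summed to 2380 to 2550 TPM with IL-3 supernatant and 2210 to 2340 TPM with PBS supernatant. The ratio of B2m to summed heavy chains was 0.534, 0.575 and 0.544 with IL-3 supernatant, against 0.844, 0.720 and 0.744 with PBS supernatant. The groups did not overlap in this ratio, which was computed after the values were seen and was not tested.

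Of the 8 nonclassical class Ib genes 3 rose and 5 did not pass. That is 37.5% of only 8 genes, all of them higher, against 14.8% of all genes that rose and 30.9% called in either direction. H2-T23 encodes Qa-1, which presents leader peptides of other class I chains to CD94/NKG2 receptors of NK cells and some CD8 T cells. It had 224, 216 and 227 CPM with IL-3 supernatant and 129, 150 and 153 CPM with PBS supernatant, with a wide gap between the groups. Its log2 fold change of 0.62 (SE 0.06, adjusted p = 1.0e-06 by edgeR) was the largest rise among class I members. Per length, H2-T23 stood at 0.284 ± 0.00393 of the H2-K1 level with IL-3 supernatant and 0.199 ± 0.0132 with PBS supernatant (ratio of TPM, SD, n = 3 each). This ratio was not planned and was not tested. Since H2-K1 did not pass, it largely restates the rise of H2-T23.

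H2-Q6 and H2-Q7 encode Qa-2 molecules, anchored to the membrane by a lipid. H2-Q6 had 74.8, 69.2 and 71.3 CPM with IL-3 supernatant and 58.4, 64.6 and 54.5 CPM with PBS supernatant, at log2 0.28 (SE 0.07, adjusted p = 0.00741 by edgeR). H2-Q7 had 204, 191 and 182 CPM with IL-3 supernatant and 166, 172 and 165 CPM with PBS supernatant, at log2 0.20 (SE 0.06, adjusted p = 0.0126 by edgeR). Groups did not overlap for either, but the calls rested on single libraries. Without PBS supernatant replicate 3 neither passed (edgeR adjusted p = 0.0529 for H2-Q6 and 0.0597 for H2-Q7), and H2-Q7 was also lost without IL-3 supernatant replicate 1 (0.0848). H2-Q10, a heavy chain gene of the same region that is not among the members, rose by log2 1.02 (SE 0.22), with 151, 163 and 103 counts with IL-3 supernatant and 75, 45 and 59 counts with PBS supernatant. H2-K2, the only other tested gene of that list, had 24, 24 and 22 counts with IL-3 supernatant and 38, 40 and 27 counts with PBS supernatant and did not pass (log2 -0.77, SE 0.37).

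The other class Ib genes did not pass. H2-T22, a ligand of some gamma-delta T cell receptors, was at 101 ± 4.71 CPM with IL-3 supernatant and 90.1 ± 7.28 CPM with PBS supernatant (SD, n = 3 each), at log2 0.17 (adjusted p = 0.0684 by edgeR). It passed by library size only (0.0427), with no filter (0.0447), without PBS supernatant replicate 2 (0.0456) and with GC content and length trends removed (0.0362). H2-Q4 was at log2 -0.10, H2-T10 at -0.05, H2-M3, which presents formylated peptides, at -0.03 and H2-T24 at -0.01, with adjusted p of 0.23 to 0.956 in edgeR. Heavy chain genes resemble each other, so the split of reads among them is uncertain. Between 0.576% (H2-M3) and 35.8% (H2-T22) of the 50-base windows of a heavy chain transcript occurred in transcripts of another gene, with 15% for H2-T23, 32% for H2-Q6 and 28.4% for H2-Q7. For B2m the share was 0%. H2-T22, H2-T10 and H2-Q4 also share 29.4%, 27.1% and 19.1% of their exonic bases with genes on the opposite strand, and how strand was treated is not given in the sources used here.

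The class I-like genes were scarce. Cd1d1 encodes CD1d, which presents lipids to NKT cells. It had 19, 27 and 12 counts with IL-3 supernatant and 32, 40 and 73 counts with PBS supernatant, of which replicate 3 was far the highest. Its log2 fold change was -1.53 (SE 0.41, adjusted p = 0.00927 by edgeR), and -1.09 without PBS supernatant replicate 3, which ended the call (adjusted p = 0.112 by edgeR). Mr1, whose product presents vitamin B metabolites to MAIT cells, was at 5.18 ± 0.691 CPM with IL-3 supernatant and 4.73 ± 0.955 CPM with PBS supernatant (SD, n = 3 each) and did not pass (log2 0.13, 95% interval -0.30 to 0.56). About 25.8% of the windows of Cd1d1 occurred in Cd1d2.

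The class I transactivator was lower. Nlrc5 (ENSMUSG00000074151, chromosome 8, 94434356 to 94527272, GRCm38) had 116, 119 and 129 CPM with IL-3 supernatant and 180, 189 and 193 CPM with PBS supernatant. No library of one group came near the other, and the log2 fold change was -0.63 (SE 0.06, adjusted p = 3.0e-07 by edgeR), or 0.648-fold.

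**Figure D2:**
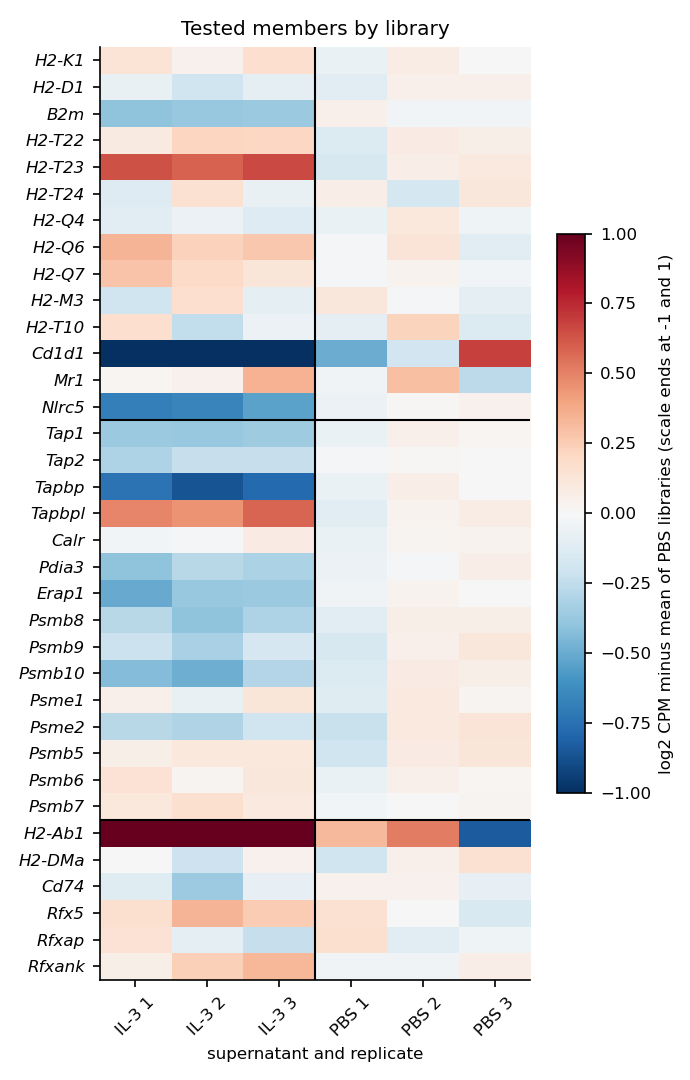
Log2 CPM of each tested member (rows, with lines between class I, peptide supply and class II genes) in each library (columns), minus the mean of the 3 PBS supernatant libraries; the colour scale ends at -1 and 1. Nlrc5 and Tapbp are blue and H2-T23 and Tapbpl red in all 3 IL-3 supernatant libraries, while Cd1d1 and H2-Ab1 vary most among the PBS supernatant libraries.

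Both chains of the peptide transporter fell. Tap1 had 185, 184 and 187 CPM with IL-3 supernatant and 227, 248 and 241 CPM with PBS supernatant, at log2 -0.37 (SE 0.05, adjusted p = 3.9e-05 by edgeR). Tap2 had 108, 114 and 114 CPM with IL-3 supernatant and 133, 135 and 133 CPM with PBS supernatant, at log2 -0.26 (SE 0.05, adjusted p = 0.00165 by edgeR). The libraries of each group lay close together and the groups did not overlap. Psmb9, Tap1, Psmb8 and Tap2 are neighbours within 34.3 kb of chromosome 17 (34181987 to 34216321, GRCm38), and all 4 were called lower, of which the Psmb9 call depended on single libraries, as given below. Of the 17 tested members on chromosome 17, 4 rose and 5 fell, against 14.8% and 16.1% of all genes.

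The largest falls and rises of peptide supply were in the peptide editors. Tapbp encodes tapasin, which bridges TAP and the class I molecule and helps it select peptides. Tapbp had 122, 111 and 118 CPM with IL-3 supernatant and 194, 212 and 203 CPM with PBS supernatant, at log2 -0.79 (SE 0.06, adjusted p = 1.6e-08 by edgeR). Tapbpl encodes TAPBPR, a relative of tapasin that edits peptides outside the TAP complex. It moved the other way, with 133, 129 and 141 CPM with IL-3 supernatant and 87.5, 96.6 and 99.1 CPM with PBS supernatant, at log2 0.51 (SE 0.06, adjusted p = 9.1e-06 by edgeR). Per length, Tapbpl stood at 1.17, 1.31 and 1.33 times the Tapbp level with IL-3 supernatant and at 0.473, 0.478 and 0.526 times with PBS supernatant. So Tapbpl transcript exceeded Tapbp transcript in all 3 IL-3 supernatant libraries and was below it in all 3 PBS supernatant libraries. This ratio was chosen after its values were seen and has no test. Of the exonic bases of Tapbp, 29% overlap other annotated genes, and none of those of Tapbpl.

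The other partners of loading were lower or did not pass. Pdia3 encodes ERp57, the thiol oxidoreductase of the loading complex, and had 495, 540 and 527 CPM with IL-3 supernatant and 630, 650 and 685 CPM with PBS supernatant (log2 -0.33, SE 0.05, adjusted p = 1.4e-04 by edgeR). Calr encodes calreticulin, the chaperone that holds the heavy chain, and had 908, 908 and 978 CPM with IL-3 supernatant and 883, 943 and 945 CPM with PBS supernatant, which overlap (log2 0.01, 95% interval -0.10 to 0.12). Erap1, the aminopeptidase that trims peptides in the endoplasmic reticulum, had 123, 134 and 135 CPM with IL-3 supernatant and 170, 178 and 174 CPM with PBS supernatant. It fell by 0.42 on the log2 scale (SE 0.06, adjusted p = 2.2e-05 by edgeR).

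The immunosubunits of the proteasome fell, and the standard subunits they replace did not pass. Psmb8 had 249, 229 and 243 CPM with IL-3 supernatant and 279, 314 and 314 CPM with PBS supernatant, at log2 -0.33 (SE 0.06, adjusted p = 3.3e-04 by edgeR). Psmb10 had 33.8, 32.7 and 37.3 CPM with IL-3 supernatant and 41.6, 48.4 and 47.7 CPM with PBS supernatant, at log2 -0.41 (SE 0.09, adjusted p = 0.00159 by edgeR). Psmb9 had 61.6, 57.3 and 63.8 CPM with IL-3 supernatant and 64.1, 74.1 and 77.3 CPM with PBS supernatant, so that the highest of one group nearly met the lowest of the other. Its log2 fold change was -0.24 (adjusted p = 0.0254 by edgeR), and the call was lost without replicate 1 or 2 of IL-3 supernatant or replicate 2 or 3 of PBS supernatant (adjusted p from 0.065 to 0.14). The 3 standard subunits leaned the other way, Psmb5 at log2 0.08 (95% interval -0.08 to 0.24), Psmb6 at 0.10 (-0.02 to 0.22) and Psmb7 at 0.12 (0.01 to 0.23), and 0 of 3 passed in edgeR, DESeq2 or limma-voom, with Psmb7 alone at an unadjusted p below 0.05 (0.0286).

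Each immunosubunit takes the place of 1 standard subunit, so the pairs were compared within libraries per length. Psmb8, which replaces Psmb5, stood at 1.36, 1.24 and 1.24 times its level with IL-3 supernatant and 1.91, 1.69 and 1.66 times with PBS supernatant. Psmb9 was scarcer than Psmb6, at 0.207, 0.217 and 0.230 times its level with IL-3 supernatant and 0.257, 0.275 and 0.284 times with PBS supernatant. Psmb10 was at 0.146, 0.136 and 0.162 times the level of Psmb7 with IL-3 supernatant and 0.197, 0.226 and 0.218 times with PBS supernatant. In all 3 pairs the ratio was lower in every IL-3 supernatant library, by log2 -0.45, -0.32 and -0.53 in that order, with no overlap between groups. The ratios carry no test of their own. Transcripts of Psmb5 share 57.1% of their 50-base windows with pseudogenes and other genes, so that pair is less certain than the other 2.

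**Figure D3:**
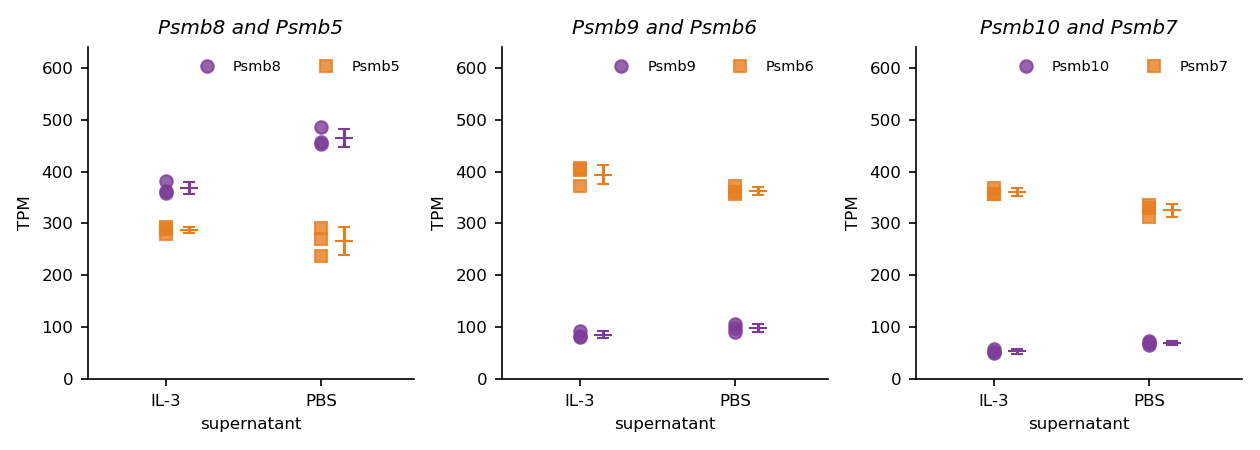
TPM of each immunosubunit (purple circles) and the standard subunit it replaces (orange squares) with IL-3 and PBS supernatant, in 3 panels; points are libraries and bars mark the mean and SD of 3. The purple means are lower with IL-3 than with PBS supernatant, though Psmb9 points overlap in TPM, with Psmb8 at 367 ± 11.6 against 465 ± 17.6 TPM, while Psmb5 stood at 288 ± 6.92 against 267 ± 27.9 TPM.

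PA28, the activator that opens the proteasome and is built from both PSME1 and PSME2, gave 1 call among its 2 genes, and the difference between them was not tested. Psme1 was at 244 ± 16.8 CPM with IL-3 supernatant and 239 ± 18.3 CPM with PBS supernatant (SD, n = 3 each; log2 0.03, 95% interval -0.11 to 0.17). Psme2 had 147, 145 and 155 CPM with IL-3 supernatant and 152, 190 and 194 CPM with PBS supernatant, at log2 -0.27 (adjusted p = 0.0281 by edgeR), and the groups overlapped. Its call was kept without PBS supernatant replicate 1 and lost without any other single library (adjusted p from 0.0588 to 0.144). By limma on log2(TPM + 1) of 5 libraries neither Psme2 (adjusted p = 0.168) nor Psmb9 (adjusted p = 0.157) passed. Of the windows of Psme2, 59.3% occur in other genes, chiefly the related Psme2b. Proteasome genes outside the members mostly did not pass. Of 11 other subunits of the core particle 1, Psmb2, fell (log2 -0.19) and none rose, with a median of 0.02. Of 18 subunits of the regulatory particle 3 rose, Psmc6 (0.24), Psmd4 (0.21) and Psmc2 (0.17), with a median of 0.07. These 3 are 16.7% of the list, near the 14.8% of all genes that rose. Of the core list 9.09% was called, against 30.9% of all genes in either direction. Of 8 other activators and assembly factors 0 passed in edgeR, DESeq2 or limma-voom, and 0 had an unadjusted p below 0.05 in edgeR.

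Class II chain transcripts were rare in both groups, and 1 of the 3 chains was called higher with IL-3 supernatant. H2-Ab1, the beta chain of I-A, had 74, 87 and 75 counts with IL-3 supernatant and 32, 37 and 13 counts with PBS supernatant. This is 3.81, 3.92 and 3.83 CPM against 1.78, 2.05 and 0.741 CPM, with no overlap. Its log2 fold change was 1.33 (SE 0.33, adjusted p = 0.00535 by edgeR), or 2.52-fold, and leaving out any 1 library gave log2 1.00 to 1.62. Its partner chain H2-Aa had 3, 19 and 11 counts with IL-3 supernatant and 3, 2 and 5 counts with PBS supernatant, which overlap. H2-Eb1, a chain of the I-E type that lacks a partner in C57BL/6J mice, had 10, 15 and 21 counts with IL-3 supernatant and 2, 7 and 7 counts with PBS supernatant. The ratios of summed counts scaled to library size were 2.89 for H2-Aa (95% exact counting interval 1.39 to 6.57) and 2.52 for H2-Eb1 (1.40 to 4.76), which cover counting error only. With no filter on low counts, edgeR called neither (adjusted p = 0.238 for H2-Aa and adjusted p = 0.191 for H2-Eb1).

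The transactivator of these genes was barely detected. Ciita had 0, 1 and 8 counts with IL-3 supernatant and 2, 4 and 2 counts with PBS supernatant, a scaled ratio of 0.984 (95% exact counting interval 0.337 to 2.93). A count of 0 in a library allows up to 0.135 to 0.173 CPM, taking 3 counts as the limit and, for this value only, the plain library total. The RFX subunits, shared by class I and class II promoters, were expressed and did not pass. Rfx5 had 22.2, 25.1 and 23.8 CPM with IL-3 supernatant and 22.1, 19.8 and 17.9 CPM with PBS supernatant (log2 0.25, adjusted p = 0.0772 by edgeR) and passed without PBS supernatant replicate 1 (0.0245). Rfxank was at log2 0.22 and Rfxap at -0.05. In edgeR 1 of the 3, Rfx5, had an unadjusted p below 0.05, and DESeq2 and limma-voom called 0.

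Cd74 and H2-DMa were the most abundant class II genes proper and did not follow H2-Ab1. Cd74 encodes the invariant chain, which guides class II molecules through the cell. It had 22, 18.6 and 22.6 CPM with IL-3 supernatant and 24.6, 24.7 and 22.6 CPM with PBS supernatant (log2 -0.19, 95% interval -0.40 to 0.02, adjusted p = 0.176 by edgeR). H2-DMa encodes a chain of the class II peptide editor and was at 10.6 ± 0.962 CPM with IL-3 supernatant and 11.0 ± 1.37 CPM with PBS supernatant (SD, n = 3 each; log2 -0.06, 95% interval -0.35 to 0.23). Of 5 class II genes outside the members, 3 were tested and 0 passed by edgeR, DESeq2 or limma-voom, and none had an unadjusted p below 0.05 in edgeR. Of the untested genes, H2-DMb1 had 15, 6 and 8 counts with IL-3 supernatant and 4, 3 and 3 counts with PBS supernatant, without overlap. H2-Eb2 had 1 count in all. Per length, Cd74 stood at 33.3 ± 3.62 TPM with IL-3 supernatant and 37.4 ± 1.94 TPM with PBS supernatant, and H2-Ab1 at 6.31 ± 0.208 TPM and 2.44 ± 1.08 TPM in the same order.

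Markers of other cells that carry class II molecules were low and some moved with H2-Ab1. The 8 B cell markers summed to 7.2 to 9.58 CPM with IL-3 supernatant and 3.17 to 4.38 CPM with PBS supernatant. The difference lay in Ebf1, an early B lineage factor, at 4.76 ± 1.09 CPM with IL-3 supernatant and 0.413 ± 0.188 CPM with PBS supernatant (SD, n = 3 each; log2 3.51, SE 0.37). Cd79b, a chain of the B cell receptor complex, stood at 2.56 ± 0.17 CPM with IL-3 supernatant and 2.67 ± 0.388 CPM with PBS supernatant (SD, n = 3 each; log2 -0.06, did not pass). The other 6 markers of the list, Cd79a, Ms4a1 and Cd22 among them, had at most 12 counts in any library. The 11 dendritic cell and macrophage markers summed to 7.47 to 10.8 CPM with IL-3 supernatant and 5.87 to 7.34 CPM with PBS supernatant, and Zbtb46, a factor of dendritic cells, rose (log2 0.73, SE 0.22). Cd68, a macrophage marker, had 28, 30 and 49 counts with IL-3 supernatant and 37, 26 and 43 counts with PBS supernatant (log2 -0.17, did not pass), and Xcr1 had 2 to 10 counts in each library. The other 8 markers of the list, Itgax, Adgre1, Csf1r and Lyz2 among them, had at most 5 counts in any library. Of 7 basophil and mast cell markers 4, Mcpt8, Fcer1a, Ms4a2 and Prss34, were at 0 in all 6 libraries, and the list summed to 0.153 to 0.991 CPM with IL-3 supernatant and 0.277 to 0.342 CPM with PBS supernatant. The 5 neutrophil markers summed to 0.515 to 1.22 CPM with IL-3 supernatant and 0 to 0.167 CPM with PBS supernatant. Of these Cxcr2 had 10, 27 and 14 counts with IL-3 supernatant and 2, 2 and 0 counts with PBS supernatant, S100a8, S100a9 and Retnlg were at 0 in all 6 libraries, and Mmp9 had 1 count in all. The 4 NK cell markers, with Klra8 at 0 in all libraries, summed to 0 to 0.0901 CPM and 0 to 0.111 CPM in the same order. The part of these cells in the H2-Ab1 result was not tested.

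**Figure D4:**
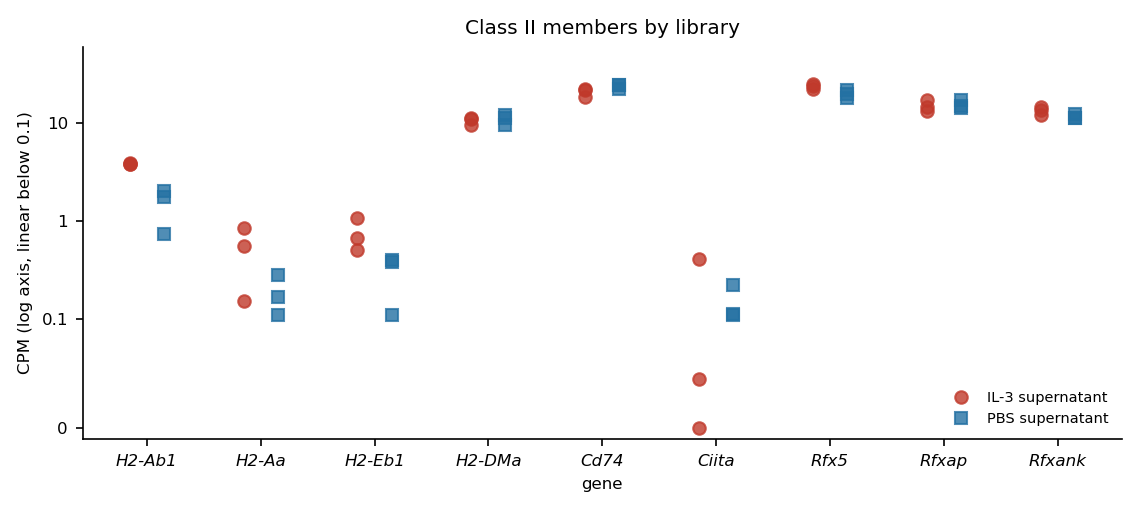
CPM of the 9 class II members in each library (log axis, linear below 0.1), with IL-3 supernatant as red circles and PBS supernatant as blue squares. H2-Ab1 is separated between the groups at 3.81 to 3.92 against 0.741 to 2.05 CPM, Cd74 and H2-DMa lie between 9.5 and 24.7 CPM in both, and Ciita lies at or near 0.

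Genes that carry the interferon-gamma signal, which is known to induce most of the class I and peptide supply members, were divided. Of 14 such genes 6 rose and 6 fell, and the median log2 fold change was -0.04. That is 85.7% called, against 30.9% of all tested genes. The receptor subunit Ifngr1, which binds the cytokine, had 35.7, 31.5 and 31.8 CPM with IL-3 supernatant and 101, 91.5 and 97.1 CPM with PBS supernatant (log2 -1.55, SE 0.07, adjusted p = 5.8e-11 by edgeR). The signalling subunit Ifngr2 was at 11.3 ± 1.32 CPM with IL-3 supernatant and 4.13 ± 0.735 CPM with PBS supernatant (SD, n = 3 each), at log2 1.45 (SE 0.17). Transcript of the cytokine itself, Ifng, was at 1700 ± 41.6 CPM with IL-3 supernatant and 876 ± 57.3 CPM with PBS supernatant (SD, n = 3 each), at log2 0.96 (SE 0.05). The kinase gene Jak2 rose by log2 1.10 (SE 0.06) and Jak1 fell by 0.45 on that scale (SE 0.05). Irf1, a factor that acts at class I promoters, was named after its values were seen and was lower, with 57.5, 52.6 and 66.9 CPM with IL-3 supernatant and 89.5, 101 and 96 CPM with PBS supernatant (log2 -0.70, SE 0.08).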

How the data were processed

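Polyadenylated RNA of 6 libraries was sequenced, 3 per group. An Illumina TruSeq kit served for library preparation, per the labels. Per the submitters' processing notes, RSEM 1.2.12, Bowtie2 2.2.0, edgeR 3.20.9 and GRCm38 were used, with roles, annotation and strand setting not given in the sources used here. The expected counts per gene deposited by the authors divide reads that fit several genes, and were rounded before testing. The TPM deposited by the authors came at gene level for 5 libraries and at isoform level for replicate 2 of PBS supernatant, for which isoforms were added up (99.7% of TPM matched a gene). Symbols matched 46005 of 46517 identifiers. Coordinates and transcripts are those of GENCODE for GRCm38, and promoters those of RefSeq.

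Counts were tested in R 4.3.3 with edgeR 4.0.16: filterByExpr, TMM, robust quasi-likelihood fit on group without a block, Benjamini-Hochberg adjustment over 12407 genes, threshold 0.05. SEs follow from the fold change and its F value, and 95% intervals used the fit's degrees of freedom. The members and gene lists were chosen with earlier results of these data known. All members are named. From other lists the 3 smallest p were to be named, and from marker lists the genes with the highest CPM and those at 0. Some of these genes are left out, Psmb4, Psma7 and Lgmn among them. Ifngr2, Jak1, Irf1 and further genes of other lists that passed, and other marker genes, were named after their values were seen. The symbols H2-T9 and H2-T26 of 1 list matched no identifier. Replicates differed by more than sampling noise in every pair (chi-square per gene at least 13.4). PBS supernatant replicate 2 stood furthest from its group, at 63.8 from replicate 1 and 60.3 from replicate 3. The other pairs within a group were at 13.4 to 25.4. Alternatives used DESeq2 1.42.0 and limma 3.58.1, with pseudocounts of 1 and 0.1 on log2 TPM. Python 3.11.15, pandas 2.3.3 and matplotlib 3.10.9 handled tables and plots. Some genes of the lists are not reported here.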

Additional observations from a re-analysis of the deposited data

How the results depend on the processing

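Over 21 alternatives each, 6 of the 17 called members kept their call in every one (B2m, H2-T23, Nlrc5, Tapbp, Tapbpl and Erap1), 11 lost it in at least 1, and no call changed sign. Leaving out 1 library at a time, 12 of the 17 kept the call under each omission. The ranges under these omissions were 1456 to 1916 genes higher and 1601 to 2102 lower over all genes, 3 to 6 members higher and 9 to 13 lower, 1 to 4 class I genes higher and 2 to 4 lower, 1 to 1 peptide supply genes higher and 7 to 9 lower, and 1 to 2 class II genes higher and 0 to 0 lower. PBS supernatant replicate 3 ended most calls, 5 members, and without it members higher numbered 3 and class I genes higher 1. Without PBS supernatant replicate 1, 2 class II genes were higher. The ratios of immunosubunit to standard subunit ranged from -0.50 to -0.39 for Psmb8 and Psmb5, -0.36 to -0.28 for Psmb9 and Psmb6 and -0.60 to -0.47 for Psmb10 and Psmb7 (log2 difference).

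Tested against a fold of 1.2, 928 genes were higher and 937 lower, with 3 members higher and 5 lower, 1 class I gene higher and 2 peptide supply genes lower; this setting asks for larger changes by construction. By limma on log2(TPM + 1) of 5 libraries without a filter, 669 genes were higher and 820 lower, with 2 members higher and 6 lower, 1 class I gene higher, 4 peptide supply genes lower and 0 class II genes higher (H2-Ab1 adjusted p = 0.109). With the filter, limma called 1156 genes higher at a pseudocount of 1 and 1158 at 0.1. At an adjusted p below 0.01, 1217 genes were higher. The cause of the differences with TPM was not tested.

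With the replicate number as a block, 1634 genes were higher and 1776 lower, and members were 5 higher and 12 lower, as without it. Deviations from the group means of same-numbered libraries correlated at -0.15, 0.05 and 0.25, so the numbers were not taken to pair the libraries. Removing GC content and length trends, chosen after seeing the data, gave 6 members higher and 13 lower with the block. Few counts limit the values of H2-Aa, H2-Eb1, Ciita and Cd1d1.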

Other observations

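Of 7 cytosolic peptidases, which trim or destroy peptides before TAP, 2 rose, Thop1 (log2 0.27, SE 0.06) and Npepps (0.21, SE 0.05), and 2 fell, Blmh (-0.23, SE 0.06) and Tpp2 (-0.20, SE 0.07). Of 9 partners of import and folding in the endoplasmic reticulum 3 rose and 1 fell: the chaperone genes Hspa5 (log2 0.27, SE 0.06), Hsp90b1 (0.16, SE 0.05) and P4hb (0.16, SE 0.05) rose, and the translocon gene Sec61a1 fell (-0.26, SE 0.05). Each of these counts is read beside the 30.9% of all tested genes that passed in edgeR.

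Of 5 factors that join RFX at class I and class II promoters, 1 rose and 3 fell, which is 80% called against 30.9% of all tested genes. Creb1, a factor of the cyclic AMP site, fell by 0.51 on the log2 scale (SE 0.07, edgeR adjusted p = 5.5e-05). The NF-Y subunits were split, with Nfyb higher (log2 0.29, SE 0.07) and Nfya (-0.23, SE 0.06) and Nfyc (-0.24, SE 0.07) lower. Of 6 enzymes of the class II compartment 5 were tested, and 40% of these were called, against 30.9% of all tested genes. Ctss, the cathepsin that degrades the invariant chain in professional antigen-presenting cells, had 505, 472 and 555 counts with IL-3 supernatant and 939, 991 and 970 counts with PBS supernatant (log2 -1.11, SE 0.10, edgeR adjusted p = 1.4e-07). Ctsl, a related protease, went the other way at log2 0.68 (SE 0.13), and the other 3 did not pass.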
